A study of Mus musculus with 16 samples.

Results

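The genes followed here encode matricellular and fibronectin matrix proteins, in 16 mice: *Sparc*, *Sparcl1*, *Tnc*, *Postn*, *Cthrc1*, *Fn1*, *Mgp*, *Thbs2* and *Wisp1*, 9 of the 49452 genes of the deposited tables. They were found by gene symbol, and each symbol matched 1 row. They were chosen from results of these same mice, with all comparisons of line and treatment known. Their levels and differences are therefore given as a description, and no p-value is given for any of the 9. The mice formed 4 groups of 4. *Acta2-CreERT2; tdTomatoflox* mice (*Acta2-tdT*) received saline (mice 1 to 4) or bleomycin (mice 5 to 8), and so did *Pdgfra-CreERT2; tdTomatoflox* mice (*Pdgfra-tdT*, mice 1 to 4 and 5 to 8). All were 11 weeks old on a C57BL6 background, and the left lung lobe was taken on day 14 after saline or bleomycin, a drug that injures the lung and leads to fibrosis. In both lines a tamoxifen-dependent Cre switches on the red protein tdTomato in cells that use the *Acta2* or the *Pdgfra* promoter while tamoxifen is present, and the label stays on in those cells and their progeny. *Acta2-tdT* mice ate chow with tamoxifen at 400 mg/kg, starting on day 5 of injury, whereas *Pdgfra-tdT* mice had 5 injections of 3 mg at 6 weeks of age, well ahead of saline or bleomycin, so line and tamoxifen schedule cannot be told apart. RNA of sorted tdTomato-positive cells was sequenced from SmartSeq2 libraries, which copy full-length transcripts of few cells. Nothing in the labels says whether mice of a group shared a litter or a day.

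Matricellular proteins are secreted into the extracellular matrix but build little of its framework. They bind collagen, fibronectin, growth factors and cell-surface receptors, and so tune how cells attach, move and assemble matrix. Most are low in the resting adult lung and high in scars and in the pulmonary fibrosis that follows bleomycin, where fibroblasts and myofibroblasts make much of them. Fibronectin differs from them in that it forms fibrils of its own, on which collagen and several matricellular proteins are laid down.

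The genes lie apart in the genome. In the deposited tables (GRCm38) *Sparc* is at chr11:55394500-55423183, *Sparcl1* at chr5:104079111-104113733, *Mgp* at chr6:136872435-136875823, *Postn* at chr3:54361109-54391037, *Tnc* at chr4:63959785-64047015, *Thbs2* at chr17:14665500-14694262, *Fn1* at chr1:71585520-71653200, *Cthrc1* at chr15:39076932-39087119 and *Wisp1* at chr15:66891320-66923201. Other genes overlap 3 of these loci. *Gm26703*, antisense to *Sparcl1*, stayed between 0.491 and 1.76 FPKM over the 16 mice. *8030451A03Rik*, which overlaps part of *Tnc* and extends beyond it, stayed between 0.0177 and 0.271 FPKM. *Apol7d*, antisense to *Fn1* over 364 bases, had 12.6 to 56.1 FPKM in the *Acta2-tdT* bleomycin mice and at most 4.50 in the others. No source used here gives counting by strand, so reads from these stretches cannot be assigned to 1 gene of a pair.

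Upstream sequences were in the RefSeq table (GRCm38.p6) for 4 of the 9 genes. They are shown as a description of the letters, and no link to the levels of these genes was tested. The 250 bases before the start nearest to the deposited gene start are printed 5′ to 3′ on the gene's own strand, and capitals mark every match, on either strand, to the letters of 5 motifs. *Sparc* is shown at chr11:55420081-55420330 (minus strand), before a start that lies 3103 bases inside the deposited gene, *Postn* at chr3:54360857-54361106 (plus), *Tnc* at chr4:64047016-64047265 (minus) and *Thbs2* at chr17:14694263-14694512 (minus).
Sparc: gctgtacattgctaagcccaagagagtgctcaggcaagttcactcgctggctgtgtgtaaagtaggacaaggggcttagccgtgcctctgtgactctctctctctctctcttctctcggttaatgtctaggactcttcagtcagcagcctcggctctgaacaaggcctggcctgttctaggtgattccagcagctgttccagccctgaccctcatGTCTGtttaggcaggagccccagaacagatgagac
Postn: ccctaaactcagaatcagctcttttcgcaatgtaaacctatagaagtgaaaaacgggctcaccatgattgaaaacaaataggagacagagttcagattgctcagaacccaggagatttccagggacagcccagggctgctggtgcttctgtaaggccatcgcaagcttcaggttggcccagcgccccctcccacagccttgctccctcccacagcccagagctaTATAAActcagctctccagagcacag
Tnc: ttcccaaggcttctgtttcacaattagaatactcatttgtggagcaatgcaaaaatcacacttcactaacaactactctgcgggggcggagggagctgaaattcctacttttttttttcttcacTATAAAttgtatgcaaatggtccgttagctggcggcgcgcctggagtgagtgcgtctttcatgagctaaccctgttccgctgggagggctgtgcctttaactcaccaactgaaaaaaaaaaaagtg
Thbs2: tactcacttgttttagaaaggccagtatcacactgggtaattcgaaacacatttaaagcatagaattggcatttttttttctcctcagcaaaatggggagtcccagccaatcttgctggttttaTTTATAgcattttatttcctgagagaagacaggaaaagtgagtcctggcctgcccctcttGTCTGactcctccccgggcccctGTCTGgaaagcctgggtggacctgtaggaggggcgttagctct
The motifs searched were AP-1 (TGANTCA), TEAD (GGAATG), SMAD (CAGAC), the TATA box (TATAAA) and the CArG box of serum response factor. The bases that follow the start were found in transcript sequences for *Sparc* and *Tnc*, but not for *Postn* and *Thbs2*. With positions counted back from the start site, *Postn* held a TATA box beginning at -26, the place where such a box usually lies. *Tnc* held one at -126, and *Thbs2* held one on the other strand at -126. *Sparc* held a SMAD match at -35, and *Thbs2* held SMAD matches at -66 and -43, all on the other strand. No marked stretches overlapped. AP-1, TEAD and CArG letters were not in these 4 windows. Windows before a second start, not printed here, held SMAD matches at -70 for *Tnc* and -191 for *Postn*. Of all 32851 upstream windows of this length, 42.2% held a SMAD match, 12.4% a TATA box, 12.6% a TEAD match, 6.75% an AP-1 match and 1.47% a CArG box. The matches describe the letters only, and no binding was measured.

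Values are FPKM, sequenced fragments normalised to the length of the transcript and to all mapped fragments of the mouse. The share of signal on nuclear protein-coding genes differed widely between mice. In the *Acta2-tdT* line their summed FPKM ranged from 35602 to 57788 after saline and from 231058 to 463127 after bleomycin, and in the *Pdgfra-tdT* line from 29964 to 59840 and from 28512 to 137952. Each value is therefore also given as scaled FPKM, with this sum set to 49122, its median over the 16 mice. The tables hold no counts, so the depth is unknown. Cufflinks bounds imply roughly 530074 to 8271131 fragments on genes per mouse. Genes of olfactory and vomeronasal receptors, 1962 in number, most of which are not known from lung cells, give a measure of background. Their median was 0.0964 to 0.297 FPKM in saline-treated mice of both lines, at most 0.0689 FPKM in the 4 *Acta2-tdT* bleomycin mice and 0.0460 to 0.269 FPKM in *Pdgfra-tdT* bleomycin mice.

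The sorted cells bore the markers of their line unevenly. All 6 smooth muscle markers were at 1 FPKM or more in all 8 *Acta2-tdT* mice. *Pdgfra* itself was 0.977 to 3.82 FPKM in *Pdgfra-tdT* mice, 0.273 to 0.562 FPKM in *Acta2-tdT* saline mice and 2.49 to 11.9 FPKM in *Acta2-tdT* bleomycin mice. Scaled, it was 0.529 to 1.26 in the last group, against 0.873 to 2.33 in *Pdgfra-tdT* bleomycin and 2.91 to 4.95 in *Pdgfra-tdT* saline mice. In *Pdgfra-tdT* mice the summed scaled level of 7 fibroblast markers ranged from 11.5 to 47.4 after saline and from 4.15 to 57.1 after bleomycin, against 30.1 to 37.1 and 222 to 337 for the same treatments in the *Acta2-tdT* line. Of these 7 markers, 0 to 6 reached 1 FPKM in a *Pdgfra-tdT* mouse, 6 in each *Acta2-tdT* saline mouse and 7 in each *Acta2-tdT* bleomycin mouse. Leukocyte markers were present throughout. Summed over 8 genes, their scaled level in the *Acta2-tdT* line was 240 to 470 after saline and 359 to 952 after bleomycin, and in the *Pdgfra-tdT* line 32.3 to 170 and 695 to 1878. *Pdgfra-tdT* saline mouse 3 and *Pdgfra-tdT* bleomycin mouse 5 stood apart by 6 endothelial markers, whose summed FPKM was 328 and 897, against 3.69 to 91.5 in the other *Pdgfra-tdT* mice. Results that rest on these 2 mice are given with and without them, a choice made after the values were seen. Fewer cells of a type and less RNA per cell cannot be told apart in such bulk samples.

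All 9 genes were highest in *Acta2-tdT* cells of bleomycin-treated mice, as the plot of every mouse shows. In each case the lowest of those 4 mice lay above the highest of the other 12, in FPKM as deposited. After scaling the same held for 8 of the 9 genes, the exception being *Sparcl1*. Such separation was common among all tested genes. Every *Acta2-tdT* bleomycin mouse exceeded every *Acta2-tdT* saline mouse for 67.8% of them (21.5% scaled) and every *Pdgfra-tdT* bleomycin mouse for 56.8% (18.9% scaled).

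**Figure D1:**
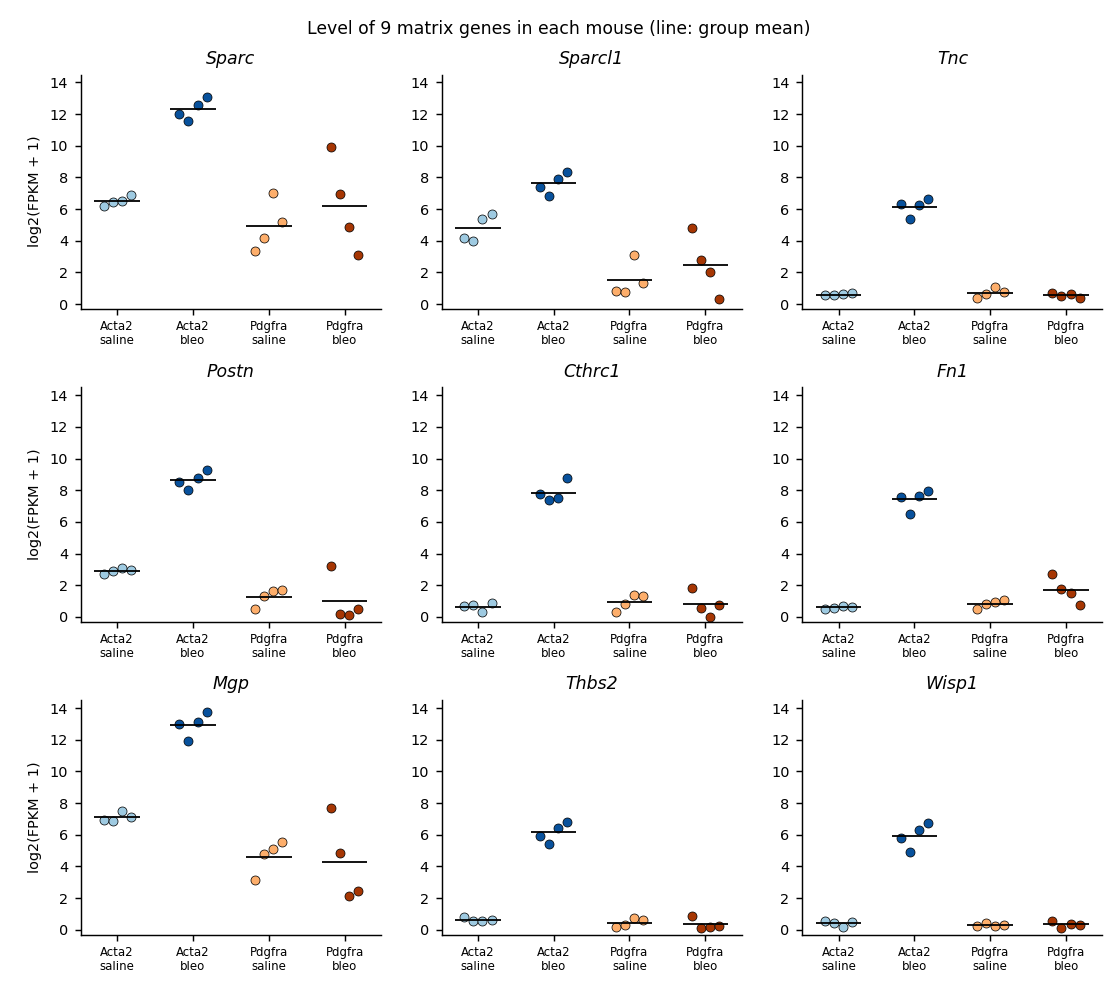
Level of each gene in each mouse, as log2(FPKM + 1) on the y axis, with 4 mice in each of the 4 groups (bleo, bleomycin) and a line at the group mean. *Sparc*, *Sparcl1*, *Postn* and *Mgp* were above background in *Acta2-tdT* saline mice, whereas *Tnc*, *Cthrc1*, *Fn1*, *Thbs2* and *Wisp1* were under 1 FPKM there, and all 9 were highest in *Acta2-tdT* bleomycin mice.

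*Sparc* encodes osteonectin, a collagen-binding glycoprotein that guides how collagen fibrils form. In *Acta2-tdT* saline mice 1 to 4 its level was 71.3, 84.4, 91.8 and 119 FPKM. In *Acta2-tdT* bleomycin mice 5 to 8 it was 4084, 3042, 6083 and 8595 FPKM. The groups did not overlap, and the 4 scaled levels with bleomycin (631, 647, 686 and 912) also lay above all 4 with saline (95.0, 117, 92.9 and 101). *Sparc* was 5.79 ± 0.40 higher with bleomycin in log2(FPKM + 1) (difference ± SE, n = 4 and 4), and 2.80 ± 0.27 higher in scaled values. In *Pdgfra-tdT* cells it was 9.17, 17.2, 128 and 35.6 FPKM with saline and 970, 121, 28.5 and 7.39 FPKM with bleomycin. These groups overlapped throughout, the difference was 1.27 ± 1.48 (0.03 without bleomycin mouse 5 and 2.31 without mouse 8), and the highest mouse of each group was one of the 2 with raised endothelial markers.

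*Sparcl1* encodes hevin, the nearest relative of SPARC, made by many resting stromal and vascular cells. It was 16.7, 14.6, 41.2 and 50.8 FPKM in *Acta2-tdT* saline mice and 171, 111, 235 and 331 FPKM in *Acta2-tdT* bleomycin mice. The deposited values of the groups did not overlap and differed by 2.82 ± 0.53 in log2(FPKM + 1). In scaled values the 4 bleomycin mice (26.4, 23.7, 26.5 and 35.1) lay inside the range of the saline mice (22.3, 20.1, 41.7 and 43.1). The scaled difference was -0.12 ± 0.34. Alone among the 9 genes, *Sparcl1* took no larger part of the coding sum with bleomycin in *Acta2-tdT* cells, 0.0568 ± 0.0101% (SD, n = 4) against 0.0648 ± 0.0250% with saline. In *Pdgfra-tdT* cells it was 0.808, 0.725, 7.42 and 1.46 FPKM with saline and 27.5, 6.02, 3.02 and 0.255 FPKM with bleomycin.

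*Mgp* encodes matrix Gla protein, which binds calcium through carboxylated glutamates and keeps soft tissue and vessel walls from calcifying. It was 122, 115, 184 and 141 FPKM in *Acta2-tdT* saline and 8061, 3908, 8880 and 13699 FPKM in *Acta2-tdT* bleomycin mice, the highest level of the 9 genes in both. The difference was 5.82 ± 0.41 in deposited and 2.83 ± 0.29 in scaled values, without overlap in either. In *Pdgfra-tdT* cells it was 7.74, 26.1, 33.3 and 44.9 FPKM with saline and 205, 28.3, 3.39 and 4.43 FPKM with bleomycin. With bleomycin 1 mouse was thus above the whole saline range, 1 inside it and 2 below it, and the difference was -0.34 ± 1.25. With 1 mouse left out it ran from -1.48 (without bleomycin mouse 5) to 0.37 (without bleomycin mouse 7).

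*Postn* encodes periostin, a fasciclin-domain protein that binds integrins and helps cross-link collagen. *Acta2-tdT* saline mice had 5.43, 6.44, 7.37 and 6.82 FPKM. *Acta2-tdT* bleomycin mice had 368, 253, 430 and 633 FPKM, and the difference was 5.74 ± 0.39, or 2.79 ± 0.25 scaled. In *Pdgfra-tdT* cells it was 0.406, 1.49, 2.1 and 2.19 FPKM with saline. With bleomycin mouse 5 had 8.11 FPKM, while mice 6 to 8 had 0.132, 0.0669 and 0.387, so that 3 of 4 mice were below every saline mouse and 1 above them all. In scaled values only mice 6 and 7 (0.131 and 0.0773) were below the saline range of 0.666 to 2.98, and none was above it.

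*Tnc*, *Thbs2* and *Wisp1* were near background in every group but one. *Tnc* encodes tenascin C, a large glycoprotein of wounds and scars that loosens cell adhesion. It was 0.462, 0.455, 0.528 and 0.638 FPKM in *Acta2-tdT* saline and 79.1, 39.6, 74.5 and 98.5 FPKM in *Acta2-tdT* bleomycin mice, a difference of 5.53 ± 0.34 (2.77 ± 0.18 scaled). Its range was 0.321 to 1.14 FPKM in *Pdgfra-tdT* saline and 0.319 to 0.601 FPKM in *Pdgfra-tdT* bleomycin mice. *Thbs2* encodes thrombospondin 2, which restrains vessel growth and matrix proteases. It was 0.727, 0.448, 0.485 and 0.517 FPKM in *Acta2-tdT* saline and 60.1, 42.7, 85.5 and 112 FPKM in *Acta2-tdT* bleomycin mice, a difference of 5.54 ± 0.35 (2.76 ± 0.19 scaled). In *Pdgfra-tdT* cells it ranged from 0.132 to 0.673 FPKM after saline and from 0.0905 to 0.840 FPKM after bleomycin. *Wisp1* (also called Ccn4) encodes a secreted CCN protein induced by Wnt signals. It was 0.465, 0.365, 0.153 and 0.434 FPKM in *Acta2-tdT* saline and 53.8, 28.7, 79.1 and 108 FPKM in *Acta2-tdT* bleomycin mice, a difference of 5.51 ± 0.41 (2.76 ± 0.22 scaled). It did not pass 0.487 FPKM in any *Pdgfra-tdT* mouse. The 3 scaled differences were thus almost the same.

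*Fn1* and *Cthrc1* differed most between saline and bleomycin in *Acta2-tdT* cells. *Fn1* encodes fibronectin, the fibril-forming protein described above. It was 0.428, 0.475, 0.616 and 0.537 FPKM in *Acta2-tdT* saline and 193, 90.8, 197 and 244 FPKM in *Acta2-tdT* bleomycin mice, a difference of 6.83 ± 0.37 (3.99 ± 0.21 scaled). In *Pdgfra-tdT* cells it was 0.432, 0.746, 0.905 and 1.08 FPKM with saline and 5.48, 2.38, 1.81 and 0.680 FPKM with bleomycin. There 3 of the 4 bleomycin mice were above every saline mouse, and the difference was 0.85 ± 0.41. *Cthrc1* encodes a secreted protein with a short collagen stretch, known from matrix-making fibroblasts of injured lungs and vessels. It was 0.590, 0.722, 0.215 and 0.820 FPKM in *Acta2-tdT* saline and 215, 165, 178 and 442 FPKM in *Acta2-tdT* bleomycin mice. The difference, 7.20 ± 0.40 (4.34 ± 0.29 scaled), was the largest of the 9 on either scale. In *Pdgfra-tdT* mice it was 0.258 to 1.61 FPKM with saline, and with bleomycin it was 2.57, 0.507 and 0.669 FPKM in mice 5, 6 and 8 and listed at 0 in mouse 7.

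The low values lie where the measurement itself is weak. In *Acta2-tdT* saline mice *Tnc*, *Thbs2*, *Fn1*, *Cthrc1* and *Wisp1* exceeded between 35.5% and 77.8% of the olfactory and vomeronasal receptor genes of the same mouse. *Sparc*, *Mgp*, *Sparcl1* and *Postn* exceeded at least 98.3% of them there. Of the 144 values of the 9 genes, 9 had a Cufflinks lower bound of 0, and 7 of those were in *Pdgfra-tdT* bleomycin mice. That group also held the mice with the fewest implied fragments. Because 1 was added before the logarithm, differences from such low groups understate the change.

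**Figure D2:**
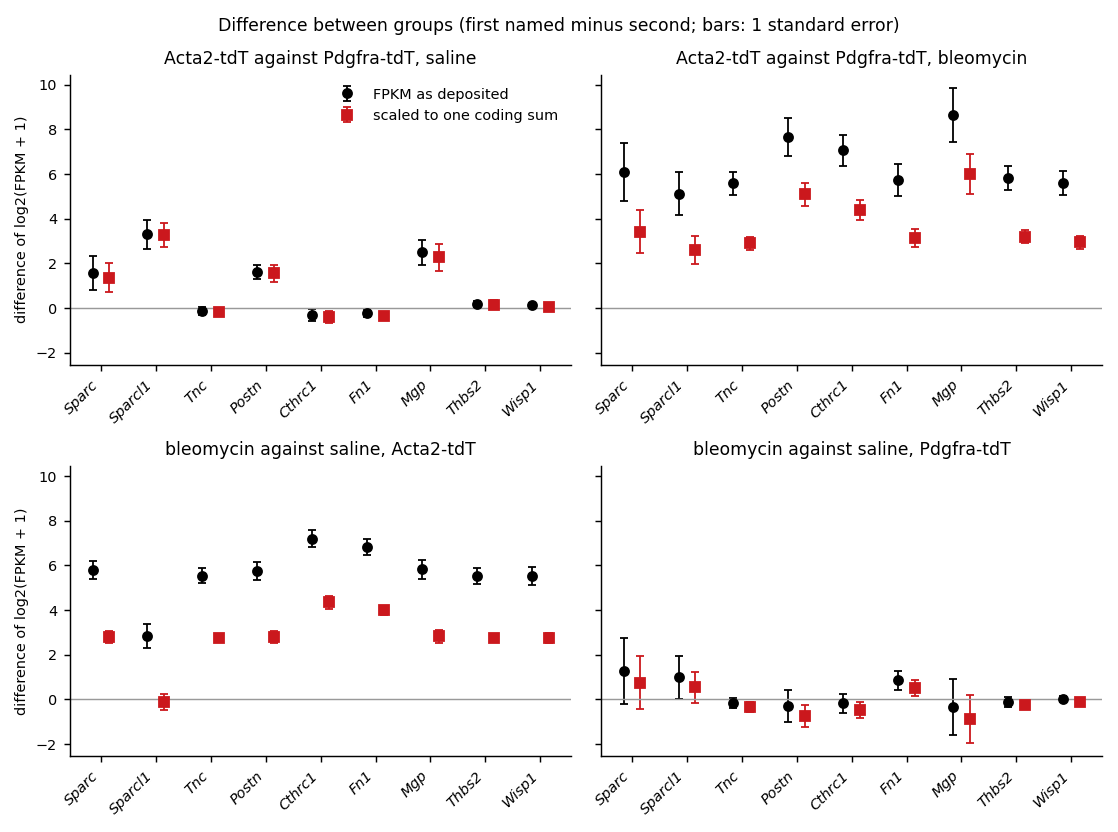
Difference of group means of log2(FPKM + 1), first-named group minus second, for each gene in 4 comparisons of 4 against 4 mice, with bars of 1 standard error. Circles are FPKM as deposited and squares are scaled FPKM. With bleomycin in *Acta2-tdT* cells all 9 differences were above 0 as deposited, and scaling took *Sparcl1* to -0.12. *Pdgfra-tdT* differences lay between -0.34 and 1.27 as deposited.

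Between *Acta2-tdT* bleomycin and saline mice, limma on log2(FPKM + 1) with Benjamini-Hochberg adjustment over 12523 tested genes called 70.4% of all genes higher with bleomycin, and all 9 of the set were among them. The median difference was 1.76 over all genes and 5.74 over the 9. In scaled values 23.9% of all genes were called higher, with 8 of the 9 among them, and the medians were -0.02 and 2.79. The choice of the 9 used this comparison, so nothing is read from these counts, and *Tnc*, *Cthrc1*, *Fn1*, *Thbs2* and *Wisp1* passed the filter only through the bleomycin mice. Scaling changed the split over all genes from 8811 higher and 2037 lower to 2999 higher and 4084 lower. Besides the leukocyte markers given above, 3 neutrophil markers ranged from 1008 to 1484 summed scaled FPKM after saline and from 127 to 876 after bleomycin. The part of these other cells in the values of the 9 genes was not tested.

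Between the lines in bleomycin-treated mice the differences were large for all 9 genes, with no overlap on either scale, as for 56.8% of all tested genes as deposited and 18.9% scaled. *Mgp* was 8.66 ± 1.21 higher in *Acta2-tdT* cells in log2(FPKM + 1), the largest difference, and 5.99 ± 0.88 higher in scaled values. *Postn* was 7.66 ± 0.85 higher in *Acta2-tdT* cells, *Cthrc1* 7.06 ± 0.69, *Sparc* 6.10 ± 1.28, *Thbs2* 5.81 ± 0.53, *Fn1* 5.75 ± 0.71, *Wisp1* 5.60 ± 0.55, *Tnc* 5.58 ± 0.53 and *Sparcl1* 5.13 ± 0.97 in log2(FPKM + 1). In scaled values these 8 differences lay between 2.61 (*Sparcl1*) and 5.09 (*Postn*). Of all 11995 tested genes 71.0% were called higher in *Acta2-tdT* cells as deposited and 15.8% in scaled values. All 9 genes were called on both scales, and again on deposited values without the *Pdgfra-tdT* mouse with raised endothelial markers. This comparison too was known when the genes were chosen, and 7 of the 9, all but *Sparc* and *Mgp*, passed the filter only with the *Acta2-tdT* mice, so nothing is read from the count. The coding sums of these groups did not overlap, and leukocyte markers in *Acta2-tdT* and *Pdgfra-tdT* mice were 359 to 952 against 695 to 1878 in scaled FPKM but 2324 to 8446 against 404 to 3264 as deposited. Neutrophil markers were 127 to 876 against 7.11 to 51.8 in scaled FPKM. The part of these in the differences was not tested.

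In saline-treated mice 4 of the 9 genes were measurable in *Acta2-tdT* cells and the other 5 were low in both lines, with a highest value of 1.61 FPKM in any saline mouse. Only *Sparc*, *Sparcl1*, *Postn* and *Mgp* passed the filter of 1 FPKM in at least 4 of the 8 mice. *Sparcl1* was 3.30 ± 0.65 higher in *Acta2-tdT* cells, *Mgp* 2.49 ± 0.56, *Postn* 1.63 ± 0.32 and *Sparc* 1.57 ± 0.76. Every *Acta2-tdT* mouse exceeded every *Pdgfra-tdT* mouse for *Sparcl1*, *Postn* and *Mgp*, whereas for *Sparc* the 128 FPKM of *Pdgfra-tdT* mouse 3 exceeded all 4 *Acta2-tdT* mice. Of all tested genes, 6.56% separated the lines in this direction as deposited and 7.75% scaled. In scaled values *Fn1* separated them the other way, at 0.457 to 0.656 in *Acta2-tdT* and 0.707 to 1.47 in *Pdgfra-tdT* mice, as did 1.95% of all tested genes. limma called *Sparcl1* and *Postn*, 2 of the 4, beside 2.72% of 8153 genes called higher. These 2 passed the filter only with the *Acta2-tdT* mice, and nothing is read from the count. In scaled values it called *Sparcl1* alone, beside 3.20%. Without *Pdgfra-tdT* mouse 3 all 4 were called as deposited, with *Sparc* 2.27 higher and *Sparcl1* 3.82 higher, while the number of all genes called higher went from 222 to 2043 of 8153. The other 5 genes differed by -0.31 to 0.17. Neutrophil markers summed to 1008 to 1484 scaled FPKM in *Acta2-tdT* and 15.8 to 67.6 in *Pdgfra-tdT* saline mice, and leukocyte markers to 240 to 470 and 32.3 to 170. Their part in these differences was not tested.

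Within the *Pdgfra-tdT* line none of the 9 genes separated the groups on either scale, where 1.43% of all tested genes were higher in every bleomycin mouse and 1.16% lower (1.31% and 0.962% scaled). *Sparc*, *Sparcl1*, *Postn*, *Fn1* and *Mgp* passed the filter and none was called, beside 0.0275% of 7275 genes called higher on the deposited scale and the same 0.0275% scaled. limma called 9 genes in all, and 312 had an unadjusted p under 0.05. The 5 differences (± SE) were 1.27 ± 1.48 for *Sparc*, -0.34 ± 1.25 for *Mgp*, 0.99 ± 0.96 for *Sparcl1*, -0.295 ± 0.70 for *Postn* and 0.85 ± 0.41 for *Fn1*. Without the 2 mice with raised endothelial markers the differences were 0.72 for *Sparc*, 0.74 for *Sparcl1*, -1.32 for *Mgp*, -0.91 for *Postn* and 0.54 for *Fn1*.

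The bleomycin difference was larger in *Acta2-tdT* than in *Pdgfra-tdT* cells for all 9 genes as deposited. The gap between the lines, fitted as an interaction over 16 mice, was 7.37 ± 0.63 for *Cthrc1*, 6.17 ± 1.40 for *Mgp*, 6.04 ± 0.87 for *Postn* and 5.98 ± 0.59 for *Fn1*. It was 5.69 ± 0.42 for *Tnc*, 5.64 ± 0.44 for *Thbs2*, 5.48 ± 0.47 for *Wisp1*, 4.53 ± 1.61 for *Sparc* and 1.83 ± 1.19 for *Sparcl1*. limma called the first 8 of these, beside 36.6% of 16605 genes called higher, and since the comparison was known when the genes were chosen nothing is read from the count. *Tnc*, *Cthrc1*, *Thbs2* and *Wisp1* passed the filter here only through the *Acta2-tdT* bleomycin mice. In scaled values it called 6, leaving out *Sparc* (2.06 ± 1.18) and *Mgp* (3.71 ± 1.06) as well, beside 1.33%, and *Sparcl1* turned to -0.66 ± 0.84. As deposited, with 1 mouse left out, the gap for *Sparc* ran from 3.48 (without *Pdgfra-tdT* bleomycin mouse 8) to 5.77 (without mouse 5). For *Sparcl1* it ran from 1.11 to 2.61 without the same mice.

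*Sparc* and *Mgp* made up most of the set in every mouse. In *Acta2-tdT* cells the 9 genes together took 0.554% to 0.672% of the coding sum after saline, against 3.32% to 5.24% after bleomycin. In *Pdgfra-tdT* mice the range was 0.0650% to 0.294% after saline, against 0.0509% to 0.885% after bleomycin, where mouse 5 was the highest. *Sparc* and *Mgp* accounted for 81.1% to 96.3% of the summed FPKM of the 9 genes over all 16 mice. FPKM is a level per transcript length, so genes can be compared on it. In *Acta2-tdT* saline mice the order was *Mgp*, *Sparc*, *Sparcl1*, *Postn* and then the 5 low genes. The ranges of *Mgp* and *Sparc* overlapped, those of the next 3 steps did not, and those of the 5 low genes did. In *Acta2-tdT* bleomycin mice *Mgp* (8637 ± 4016 FPKM, SD, n = 4) and *Sparc* (5451 ± 2447) overlapped and stood clear of *Postn* (421 ± 159). Below *Postn* came *Cthrc1* (250 ± 130), *Sparcl1* (212 ± 93.9), *Fn1* (181 ± 64.6), *Thbs2* (75.1 ± 30.4), *Tnc* (72.9 ± 24.5) and *Wisp1* (67.3 ± 33.9), each overlapping its neighbour. *Sparcl1*, the third gene of the set with saline, was the fifth there.

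**Figure D3:**
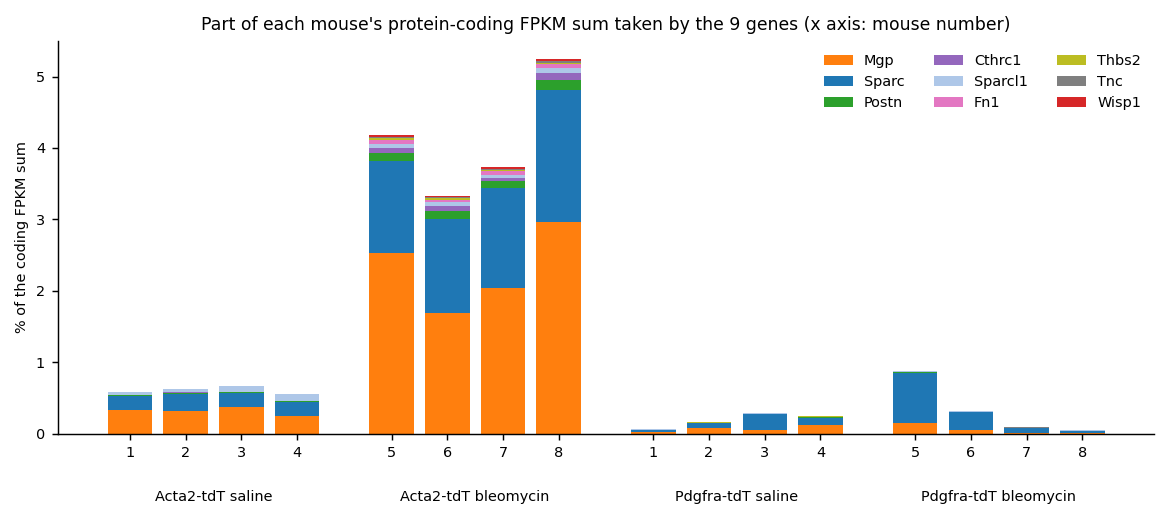
Part of the summed protein-coding FPKM taken by the 9 genes in each mouse, in percent, stacked by gene from a baseline of 0. The 4 *Acta2-tdT* bleomycin mice reach 3.32% to 5.24%, mostly *Mgp* and *Sparc*, and no other mouse passes 0.885%.

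How far the 9 genes had the same highest and lowest mouse differed between groups. In *Acta2-tdT* saline mice each of mice 1, 3 and 4 was the highest for 2 to 4 genes as deposited, whereas mouse 2 was the highest for 5 after scaling, and in *Pdgfra-tdT* saline mice mouse 1 was the lowest for 7 on both scales. In *Acta2-tdT* bleomycin mice all 9 genes were lowest in mouse 6 and all 9 highest in mouse 8, the mice with the smallest and the largest coding sum of that group. After scaling mouse 8 was still the highest for 7 genes, mouse 6 was the lowest for 5, and the ratio of highest to lowest mouse narrowed from 2.83 to 1.45 for *Sparc*, from 2.97 to 1.48 for *Sparcl1* and from 2.63 to 1.31 for *Thbs2*. It narrowed least for *Cthrc1*, from 2.68 to 2.34. In *Pdgfra-tdT* bleomycin mice all 9 genes were highest in mouse 5 as deposited and 5 of them after scaling, and the lowest mouse differed between genes. The ratio of highest to lowest mouse there was 131 for *Sparc* and 60.6 for *Mgp*, and 27.1 and 18.7 after scaling.

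Ratios between genes within a mouse do not depend on the scaling. The ratio of *Sparc* to *Sparcl1* was 4.27, 5.79, 2.23 and 2.34 in *Acta2-tdT* saline mice. It was 23.9, 27.3, 25.9 and 26.0 in *Acta2-tdT* bleomycin mice, a range narrower in proportion than that of either gene. In *Pdgfra-tdT* mice it was already 11.4 to 24.4 with saline and was 9.44 to 35.3 with bleomycin, so the 4 *Acta2-tdT* saline mice were the lowest of all 16. The ratio of *Postn* to *Sparcl1* in the same mice likewise was 0.134 to 0.442 after saline, against 1.83 to 2.27 after bleomycin, but in *Pdgfra-tdT* mice it was 0.283 to 2.05 and 0.0220 to 1.52, so here the *Acta2-tdT* saline mice were not the lowest. By contrast, *Mgp* and *Sparc* kept the same proportion in *Acta2-tdT* cells, 1.19 to 2.0 after saline against 1.28 to 1.97 after bleomycin. In *Pdgfra-tdT* bleomycin mice *Mgp* was 0.119 to 0.599 of *Sparc*, below all 8 *Acta2-tdT* mice, and in *Pdgfra-tdT* saline mice it was 0.259 to 1.51, with mice 1 and 3 also below them. The ratio of *Fn1* to *Tnc* in *Acta2-tdT* cells was 0.842 to 1.17 after saline, against 2.30 to 2.65 after bleomycin. In *Pdgfra-tdT* cells it was 0.796 to 1.53 against 2.13 to 9.13. Both genes were near background in *Acta2-tdT* saline mice, and *Tnc* was so in *Pdgfra-tdT* mice, so the ratios of these groups are poorly measured.

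**Figure D4:**
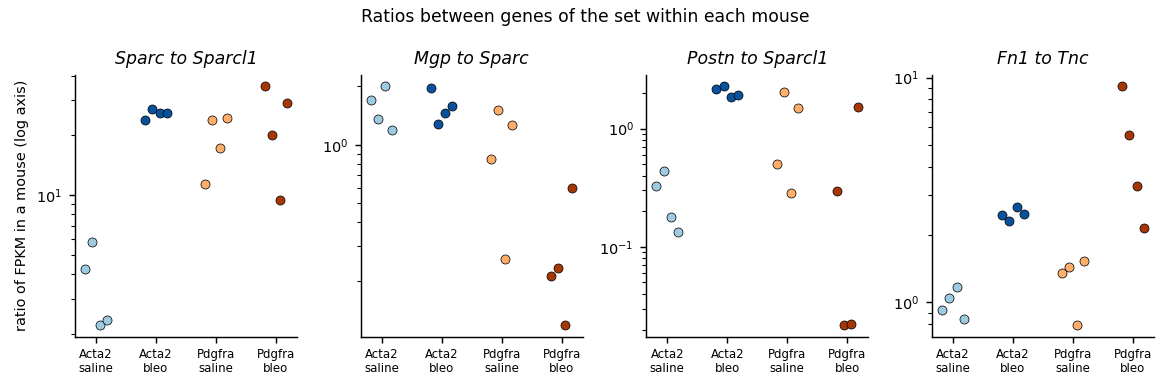
Ratio of the FPKM of paired genes within each mouse, on log axes, with 4 mice in each group (bleo, bleomycin). *Sparc* to *Sparcl1* is 2.23 to 5.79 in *Acta2-tdT* saline mice and 23.9 to 27.3 in *Acta2-tdT* bleomycin mice, while *Mgp* to *Sparc* covers about the same range in these groups.

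In the *Pdgfra-tdT* line *Sparc* and *Sparcl1* are given beside the markers of other cells. With bleomycin the summed FPKM of the 6 markers was 897, 91.5, 27.5 and 3.78 in mice 5 to 8, and both genes had the same order of mice. The fibroblast markers (160, 18.8, 3.59 and 2.85 FPKM), the leukocyte markers (3264, 1900, 1306 and 404) and the coding sum (137952, 49700, 42515 and 28512) had that order too as deposited, whereas the neutrophil and epithelial markers did not. In scaled FPKM the endothelial markers were 319, 90.4, 31.8 and 6.51, *Sparc* 345, 120, 33.0 and 12.7 and *Sparcl1* 9.79, 5.95, 3.49 and 0.439. The fibroblast markers were 57.1, 18.6, 4.15 and 4.91, the same order but for mice 7 and 8. The leukocyte markers were 1162, 1878, 1509 and 695. An order of 4 mice cannot tell the parts of these cells apart. With saline mouse 3, at 328, had the highest *Sparc* and *Sparcl1*, but mouse 1, with the next highest endothelial sum (9.59), had the lowest *Sparc*, whereas *Mgp* was highest in mouse 4, whose endothelial sum was 6.35. In saline mice 1 to 4 the fibroblast sums (7.01, 7.78, 57.7 and 15.6 FPKM) and the coding sums (29964, 30051, 59840 and 36086) had the order of *Sparc*. They did not have that of *Sparcl1*, and the smooth muscle, leukocyte, neutrophil and epithelial sums had neither. The defining endothelial marker *Pecam1* was 39.1 FPKM in saline mouse 3, 65.9 in bleomycin mouse 5 and 0.252 to 5.78 in the other *Pdgfra-tdT* mice. *Acta2-tdT* bleomycin mice had 18.9 to 26.2 summed FPKM of these markers (2.66 to 4.04 scaled) with the highest *Sparc* of all. The part of any of these cells in the *Pdgfra-tdT* values was not tested.

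**Figure D5:**
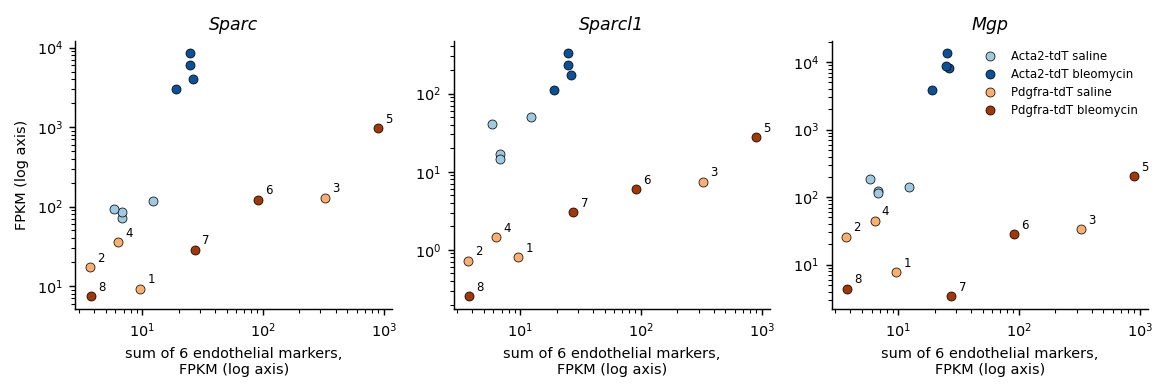
FPKM of *Sparc*, *Sparcl1* and *Mgp* (y axis) against the summed FPKM of 6 endothelial markers (x axis) in each mouse, both on log axes, with *Pdgfra-tdT* mice numbered. Bleomycin mouse 5 and saline mouse 3 lie at 897 and 328 on the x axis, and the *Acta2-tdT* bleomycin mice lie highest at 18.9 to 26.2.

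The genes whose pattern over the 16 mice was most like each of the 9 were found by the root mean square difference of centred log2(scaled FPKM + 1) among 10364 protein-coding genes. *Tnc*, *Thbs2* and *Wisp1* were among each other's 3 nearest (0.22 to 0.25 log2 units), together with *Col5a1* for *Tnc* (0.21), *Col5a2* for *Thbs2* (0.22) and *Ccdc80* for *Wisp1* (0.25). *Col5a1* and *Col5a2* encode the chains of type V collagen, which starts collagen fibrils. The nearest genes of *Fn1* included *Igfbp2* (0.47) and *Col5a2* (0.50), and those of *Cthrc1* included *Igfbp2* (0.54) and *Col1a1* (0.62). *Postn* lay nearest to *Serpine2*, *Col6a2* and *Thbs1* (0.38 to 0.40). *Sparc* lay nearest to *Ppic*, *Ssr2* and *Copz2* (0.49 to 0.58), which serve protein folding and transport in the secretory pathway, and *Mgp* to *Postn*, *Bgn* and *Rcn3* (0.72 to 0.75). *Sparcl1* had no matrix gene among its 3 nearest, which were *Cd81*, *Map1lc3a* and *Cald1* (0.42 to 0.46).

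The families of the 9 genes were read from a list of 31 relatives, among them other SPARC proteins, thrombospondins, CCN proteins and the enzymes that carboxylate matrix Gla protein. The list was written by family, with earlier results of these data known. In *Acta2-tdT* cells 16 of 17 tested relatives rose with bleomycin and 1 fell, and in scaled values 13 rose and 1 fell, beside 70.4% and 23.9% of all genes called higher. Of the 17, 8 passed the filter only with the bleomycin mice, the group in which they were high. *Spp1*, which encodes the matricellular protein osteopontin and is used by macrophages as well, rose from 13.3 ± 1.46 to 7215 ± 2923 FPKM (SD, n = 4), by 8.86 ± 0.43 in log2(FPKM + 1) (limma, adjusted p = 2.86e-06) and by 5.88 in scaled values. *Thbs1*, which encodes thrombospondin 1, an activator of latent TGF-beta, rose by 5.91 ± 0.47 (adjusted p = 1.14e-05; 3.0 scaled). The gene that fell was *Vtn*, which encodes the plasma protein vitronectin, with a difference of -1.02 ± 0.34 (adjusted p = 0.0176), from 2.86 ± 1.46 to 0.907 ± 0.729 FPKM. The median difference of the tested relatives was 3.91, against 1.76 over all genes, and 1.04 against -0.02 in scaled values.

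Between the lines with bleomycin all 16 tested relatives were called higher in *Acta2-tdT* cells, beside 71.0% of all genes, and 11 of 16 in scaled values, beside 15.8%. As many as 14 of the 16, the 3 named next among them, passed the filter only with the *Acta2-tdT* mice. *Thbs1* was 7.20 ± 0.77 higher (limma, adjusted p = 5.52e-05), *Fstl1*, a secreted relative of SPARC, 6.44 ± 0.82 (adjusted p = 0.000108) and *Ctgf*, the CCN protein best known from fibrosis, 6.03 ± 0.51 (adjusted p = 4.11e-05). In scaled values these 3 were 4.64, 3.90 and 3.33 higher and again called. With saline 1 of 9 tested relatives was called, *Vtn*, which was 1.79 ± 0.28 higher in *Acta2-tdT* cells (adjusted p = 0.0147). It passed the filter only with the *Acta2-tdT* mice, and no relative was called without *Acta2-tdT* mouse 3, without *Pdgfra-tdT* mouse 1, 2 or 4, without the filter, or with a replicate block. *Vtn* was at most 0.224 FPKM in the *Pdgfra-tdT* saline mice. Without *Pdgfra-tdT* saline mouse 3 the count was 8, while all called genes went from 237 to 2397 of 8153. Within the *Pdgfra-tdT* line none of 5 tested relatives was called. *Spp1* there had 28.6 ± 20.2 FPKM with saline and 768 ± 581 with bleomycin, a difference of 4.46 ± 1.08 that missed the threshold (adjusted p = 0.543).

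The difference of the bleomycin response between the lines passed the test for 15 of 17 relatives, 14 of them with the larger response in *Acta2-tdT* cells, beside 36.6% of all genes, and 8 of the 17 passed the filter only with the *Acta2-tdT* bleomycin mice. *Thbs1* (6.17 ± 0.79, limma, adjusted p = 9.29e-05), *Fstl1* (5.05 ± 0.92, adjusted p = 0.000939) and *Ctgf* (4.90 ± 0.51, adjusted p = 2.03e-05) were the largest. In scaled values 5 were called with the larger response in *Acta2-tdT* cells, these 3 included at 3.63, 2.53 and 2.18, beside 1.33% of all genes, and 1, *Vtn*, with the smaller.

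Receptors were read from a list of 14 genes, made of integrin chains that bind fibronectin, periostin and tenascin, syndecan 4, and receptors of thrombospondin or SPARC. In *Acta2-tdT* cells 11 of 12 tested receptors rose with bleomycin and 1 fell, with a median difference of 3.15, and in scaled values 7 rose and 2 fell, with a median of 0.77. Over all tested genes 70.4% were called higher with a median of 1.76, and 23.9% with a median of -0.02 in scaled values. Of the 12 receptors, 8, *Itga5* and *Itga8* among them, passed the filter only with the bleomycin mice. *Itga5*, which encodes the main fibronectin receptor chain, rose from 0.611 ± 0.318 to 80.2 ± 36.5 FPKM, by 5.52 ± 0.43 (limma, adjusted p = 1.14e-05) and by 2.77 in scaled values. The receptor that fell was *Itga4*, named after its value was seen, with a difference of -0.54 (limma, adjusted p = 0.0328). *Itga8*, also named after its values were seen, was called higher as deposited (0.99) and lower in scaled values (-0.33). Between the lines with bleomycin 10 of 12 were called higher in *Acta2-tdT* cells and none lower, beside 71.0% of all genes called higher, and in scaled values 5 higher and 2 lower, beside 15.8%, and 9 of the 12 passed the filter only with the *Acta2-tdT* mice. None of 4 tested receptors was called between the lines with saline, where 3 were called without *Pdgfra-tdT* mouse 3, and none of 4 within the *Pdgfra-tdT* line. The response was larger in *Acta2-tdT* cells for 9 of 12 as deposited and for 2 in scaled values, beside 36.6% and 1.33% of all genes, and 5 of the 12 passed the filter only with the *Acta2-tdT* bleomycin mice.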

How the data were processed

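Sorted tdTomato-positive lung cells of 16 mice, 4 in each of 4 groups, were measured by SmartSeq2 sequencing. FPKM per gene and mouse, as deposited, came from Cufflinks 2.1.1 after alignment by the authors to GRCm38 (mm10) with TopHat2 (2.1.1, on Bowtie2 2.2.9). FPKM was summed per Ensembl gene ID, and 15 genes whose FPKM status was not OK were left out. The 9 genes and all lists were chosen with earlier results of these data known. Scaled FPKM set the nuclear protein-coding sum to the median of the 16 mice. limma 3.58.1 in R 4.3.3 (trended variance) tested log2(FPKM + 1) of genes at 1 FPKM or more in at least 4 mice of a comparison, with Benjamini-Hochberg adjustment over all tested genes and a threshold of 0.05, and the fit was tested on simulated data. All 9 genes were named, with up to 3 called relatives or receptors of the largest difference per comparison and the 3 nearest genes of each member, of which 1 gene is not reported here. Alternatives were another pseudocount, no filter, scaling, a replicate block, each mouse left out, and 2 mice with raised endothelial markers left out. Replicate numbers were not used to pair mice in the main fits. Correlations of same-numbered mice ranged from -0.31 to 0.16, and whether such mice shared a litter or a day is unknown. Figures were drawn with matplotlib 3.10.9.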

Additional observations from a re-analysis of the deposited data

Results flagged for a closer look

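In *Pdgfra-tdT* bleomycin mice 5 to 8, mouse 5 stood far above the other 3 for *Postn* (8.11 FPKM) and for *Thbs2* (0.840 FPKM) as deposited. Its coding sum was 137952 against at most 49700 in the other 3, and scaled *Thbs2* was 0.299 in mouse 5 and 0.276 in mouse 8. Scaled *Postn* was 2.89 in mouse 5 and 0.131, 0.0773 and 0.666 in mice 6 to 8. These were 2 of 36 groups examined for a mouse far from the rest, and chance flags about 1 in 20. Mouse 5 also had the highest endothelial marker sum (897 FPKM), and the part of such cells in these values was not tested.

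The bleomycin difference was larger in the *Acta2-tdT* than in the *Pdgfra-tdT* line, by limma over 16 mice, for 8 of the 9 genes, beside 36.6% of all tested genes (1.33% scaled). The gap in log2(FPKM + 1) was 4.53 for *Sparc*, 5.69 for *Tnc*, 6.04 for *Postn*, 7.37 for *Cthrc1*, 5.98 for *Fn1*, 6.17 for *Mgp*, 5.64 for *Thbs2* and 5.48 for *Wisp1*. For these 8 the gap is a description, since the genes were chosen with it known. Among the relatives it was 6.17 for *Thbs1*, 5.05 for *Fstl1* and 4.90 for *Ctgf*. In scaled values *Sparc* and *Mgp* were no longer called.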

How the results depend on the processing

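Called genes are counted here by limma over all tested genes unless a list is named, and the cause of each change was not tested. Between the lines with saline the count was 237, and it was 59 without the filter on low values, 36 with a replicate block, 2397 without *Pdgfra-tdT* mouse 3 and between 88 (without *Pdgfra-tdT* mouse 2) and 2397 with 1 mouse left out. Relatives called there were 1, against 0 without the filter, 0 with the replicate block, 8 without mouse 3 and 0 to 8 with 1 mouse left out, and receptors were 0, against 3 without mouse 3 and 0 to 3. Within the *Pdgfra-tdT* line the count was 9, against 2 without the filter, 19 without the 2 mice with raised endothelial markers and 6 (without saline mouse 1) to 73 (without bleomycin mouse 8) with 1 mouse left out, which gave 0 to 2 relatives. Scaling took the count from 10848 to 7083 with bleomycin in *Acta2-tdT* cells, from 9553 to 4012 between the lines with bleomycin, and from 6605 to 369 for the interaction, with 6 relatives and 2 receptors called in it. The interaction count was 3463 with a pseudocount of 0.1. The *Sparcl1* difference with bleomycin in *Acta2-tdT* cells turned to -0.12 when scaled, the only called difference of the 9 genes to change sign. Of the members' other values under alternatives without a mouse left out, 47 moved by more than the spread between mice and 186 did not. The replicate block gave 9379 genes between the lines with bleomycin. All other counts stayed within 1.5 times. FPKM without counts leaves the depth unknown, and the 5 low genes lie near background outside the *Acta2-tdT* bleomycin group.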
